A study of Solanum lycopersicum with 36 samples.

Results

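In tomato leaves, 58 genes stayed within a set limit of their starting level at 6 and 12 h of salt stress. They then lay higher at 48 and 96 h, in grafted seedlings (GSs) and in nongrafted seedlings (NGSs) alike. These late-rise genes were chosen by their measured levels. The level of a gene was taken as log2(FPKM + 1), where FPKM is the number of fragments scaled to the length of the gene and to a divisor of the library. Each change was the mean of a group minus the mean of the same seedling type at 0 h. A gene was kept if its change was at least 1 at both 48 and 96 h and within 0.75 in either direction at both 6 and 12 h, in both seedling types. Of the 32246 genes in the table, 20090 reached 1 FPKM in 3 or more of the 36 libraries and were tested, and 58 of these (0.289%) met the rule.

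The study compared GSs, made by split grafting with the salt-tolerant rootstock QZ-006, with NGSs, which the labels call self rooted. It asked how a rootstock alters the salt response of the leaves. The other variety used was the salt-sensitive Zhongza 9, and the variety of the NGSs is not named in the labels. All seedlings grew in aerated Hoagland solution, to which 175 mM NaCl was added at 0 h, and leaves were harvested at 0, 6, 12, 24, 48 and 96 h. With 3 biological replicates at each time point, 12 groups of 3 libraries resulted, and the replicates are numbered here as in the labels. No leaves of unsalted seedlings were sequenced after 0 h, so salt and elapsed time cannot be told apart. Self-grafted seedlings were not sequenced either, so the grafting itself and the rootstock cannot be told apart in any difference between GSs and NGSs. The labels give no hour of the day for the harvests. The paper states a single morning hour for sampling, without saying how the harvests of 6 and 12 h were fitted to it. If NaCl was added to all seedlings at the same hour, those harvests fell at other hours of the day than the rest. Hour of the day and time in salt could then not be told apart.

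Salt acts on a leaf in an early and a late phase. The early one is osmotic: the lower water potential at the roots is followed by abscisic acid synthesis, closing of the stomata and a wave of stress-induced transcription. The late one is ionic, when sodium and chloride carried up in the xylem accumulate in the leaf blade and older leaves lose chlorophyll and senesce, and transcription factors of the NAC, MYB, bZIP, GRAS and AP2/ERF families are known to act in both.

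Each library held between 15229640 and 26661418 reads on genes, of which 14455 to 124891 lay on the late-rise genes. All 9 leaf markers that could be matched (small subunits of Rubisco and chlorophyll a/b-binding proteins) were expressed, with up to 36765 FPKM. The pollen markers LAT52 and LAT59 and the fruit markers E8 and PG2 did not exceed 0.559 FPKM, and the root marker RSI-1 was read at 1.07 to 41.2 FPKM. The p-values measure the spread between these libraries only. In whole leaves, a change in the number of cells of a type cannot be told apart from a change in RNA per cell.

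A rise at 48 and 96 h in both seedling types was in itself more frequent than the late-rise pattern. All 4 late changes were at least 1 in 607 genes. Among these, 58 met the limit on the early changes, 116 had already risen by at least 1 at 6 and 12 h in both seedling types, 20 lay at least 0.75 below 0 h at those times, and 413 were mixed. The genes just inside the late limit were NAM1 (smallest late change 1.01) and LOC101249387 (1.01), and those just outside were LOC101263469 (0.996) and LOC101253645 (0.992). At the early limit, LOC101250549 (largest early change 0.744) and LOC101266726 (0.741) lay inside, and LOC101245896 (0.760) and LOC101254846 (0.761) outside. Of the 58 genes, 53 carried an identifier of the public annotation, 8 of them with a gene symbol, and 5 were defined by the authors from the reads and are cited by their number as read-defined genes. The filter on low values was passed by 56 genes without the libraries of 48 and 96 h and by 46 in the libraries of 0, 6 and 12 h alone, so 12 genes depended on later libraries to enter the test.

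The changes that the rule used are given as a description, without a test. The median change of the GSs was −0.13 at 6 h, −0.13 at 12 h, 1.76 (range 1.01 to 4.43) at 48 h and 1.73 (1.06 to 3.85) at 96 h. For the NGSs the medians were 0.26, 0.28, 1.44 (1.01 to 3.13) and 1.62 (1.02 to 3.92). The median of the group mean FPKM was 2.51 in unsalted GSs and 10.8 after 96 h, and 2.21 and 9.54 in NGSs. Levels before salt ranged widely, with group means of up to 84.97 FPKM in GSs, but 13 genes lay under 1 FPKM in all 6 libraries of 0 h, and 8 had no read in at least 1 of them. The pseudocount of 1 understates the change of such genes.

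**Figure D1:**
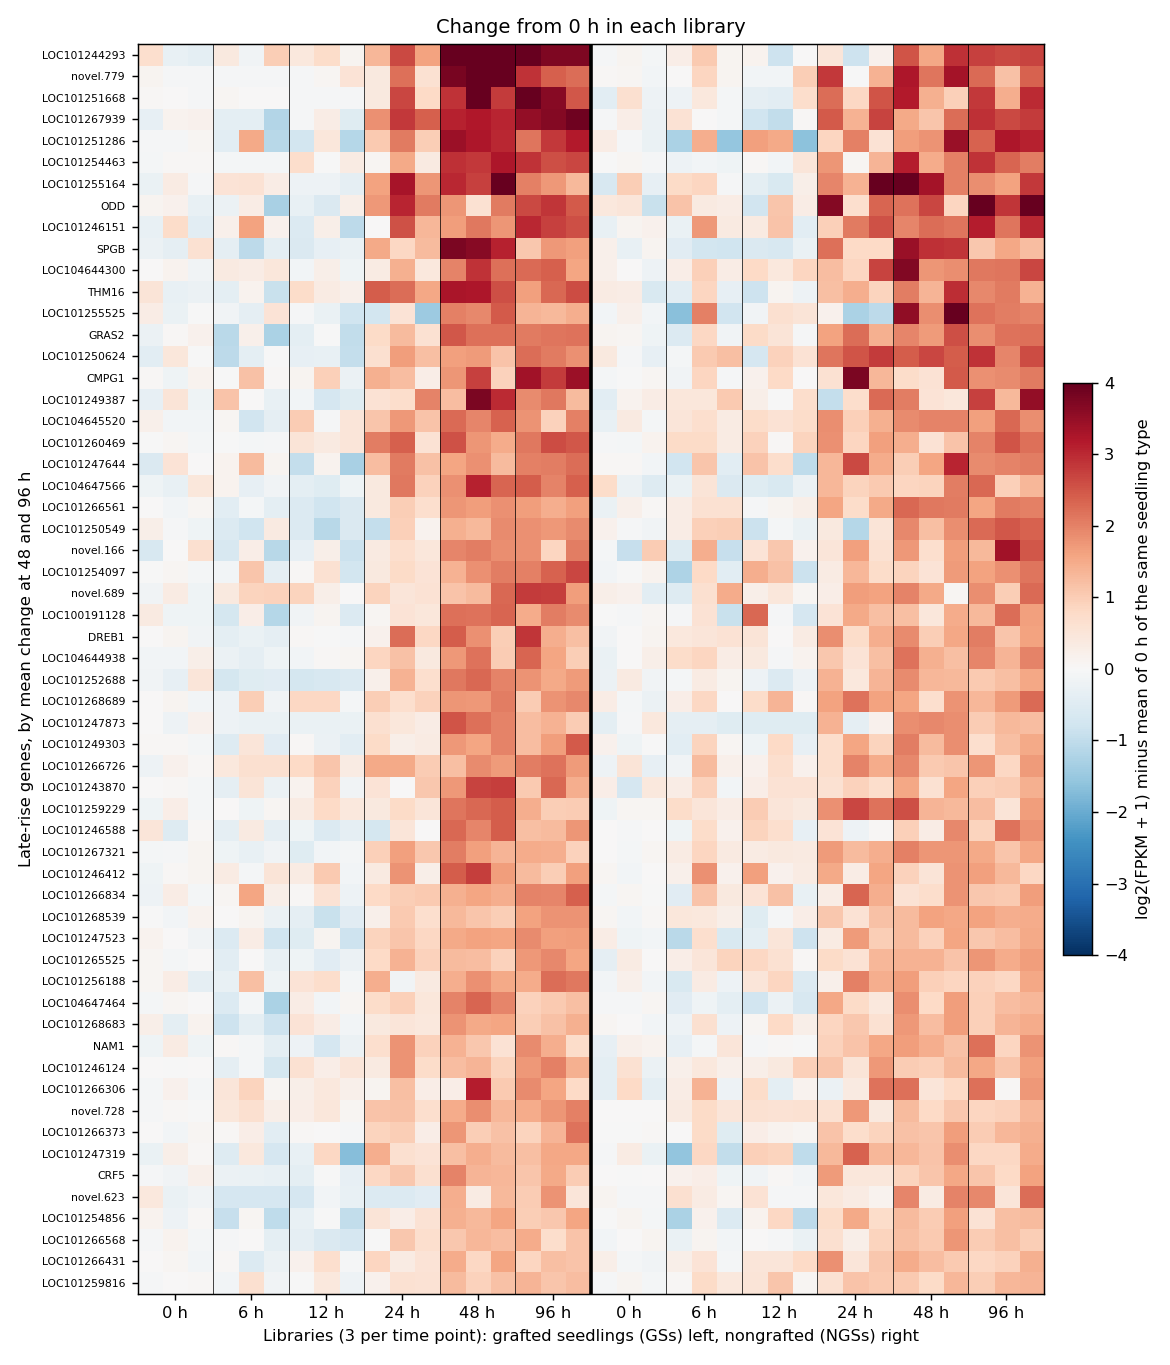
Each row is 1 of the 58 late-rise genes, ordered by the mean of its changes at 48 and 96 h, and each column is 1 library, with the GSs on the left and the NGSs on the right of the thick line. The color gives log2(FPKM + 1) minus the 0 h mean of the same seedling type; the pale columns of 6 and 12 h and the red columns of 48 and 96 h follow from the rule, and the columns of 24 h, which the rule did not read, lie in between for most rows.

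The mean of log2(FPKM + 1) over the 58 genes shows how the libraries of a group spread. In GSs, from 0 to 96 h in order, this mean ranged over 2.18 to 2.23, 1.94 to 2.39, 1.93 to 2.29, 2.89 to 3.49, 4.16 to 4.32 and 4.05 to 4.09. The corresponding ranges in NGSs were 1.96 to 2.09, 1.92 to 2.70, 2.04 to 2.33, 3.08 to 3.31, 3.30 to 3.84 and 3.57 to 3.96. The libraries of 24 h lay above all of 0, 6 and 12 h in both seedling types, and the 3 GS libraries lay above the 3 NGS libraries at 48 h and at 96 h. A few libraries stood apart from the other replicates of their group: replicate 2 at 6 h, with 2.39 in GSs and 2.70 in NGSs, replicate 8 of the GSs at 24 h with 3.49, and replicate 11 of the NGSs at 48 h with 3.30.

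**Figure D2:**
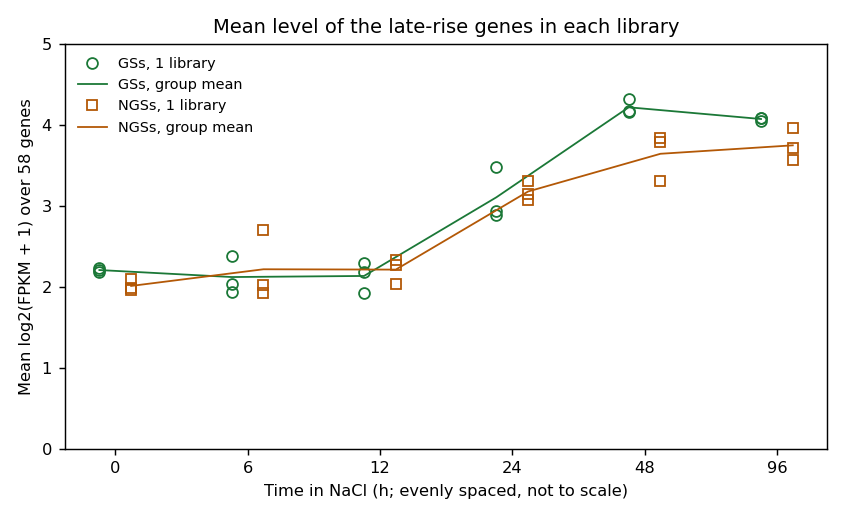
The mean of log2(FPKM + 1) over the 58 late-rise genes (y axis) is plotted against the time in NaCl (x axis, h, evenly spaced), with 1 point per library and lines through the group means. The GS libraries of 48 h (4.16 to 4.32) lie above the NGS libraries of that time point (3.30 to 3.84).

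The gene with the largest mean late change was LOC101244293 (3.32). In GSs its FPKM was 15.1, 7.16 and 6.57 in the 3 libraries of 0 h and 23.9, 60.6 and 29.6 at 24 h, against 175, 224 and 250.1 at 48 h and 169, 133 and 131 at 96 h. In NGSs it was 18.3, 20.4 and 17.98 at 0 h, 26.6, 10.2 and 21.3 at 24 h, and then 111, 56.4 and 149 by 48 h and 130.2, 122 and 127 by 96 h. The libraries of the NGSs at 0 and 24 h therefore overlapped, whereas those of the GSs did not. Next came the read-defined gene 779 (2.89) and LOC101251668 (2.89), which were almost silent before salt. The former had 0 to 1 read in each library of 0 h in both seedling types, and it reached 13.2, 19.6 and 24.1 FPKM at 48 h in GSs and 9.14, 3.75 and 10.02 FPKM in NGSs. Expression of LOC101251668 was uneven among replicates, with 6.69, 59.2 and 6.28 FPKM in GSs at 48 h, of which replicate 11 was the highest, and 11.2, 2.64 and 1.63 FPKM in NGSs. The fitted change of both genes depends on the pseudocount of 1, which makes it smaller, and it is no bound on the true change.

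LOC101267939 was high from 24 h on in both seedling types. Its FPKM in GSs was 2.07, 3.25 and 3.38 at 0 h, 12.6, 26.5 and 19.3 at 24 h, and it went on to 31.5, 34.3 and 30.6 by 48 h and 43.1, 48.3 and 55.7 by 96 h. In NGSs the values were 3.64, 4.87 and 3.15, 25.7, 11.6 and 30.3, 12.8, 9.33 and 21.9 and 35.4, 29.3 and 32.4 FPKM at the same times. Every library of 24 h and later was above every library of 0 h in both seedling types, and in NGSs the mean was lower at 48 h than at 24 and 96 h. LOC101251286 swung widely between replicates at the early time points, where its values of 7.05, 30.2 and 4.03 FPKM in GSs at 6 h and 26.8, 24.5 and 1.86 FPKM in NGSs at 12 h averaged to a change within the limit of the rule. At 48 h it stood at 115, 99.7 and 85.4 FPKM in GSs and 27.4, 30.01 and 97.3 FPKM in NGSs. The remaining leading genes without a symbol were LOC101254463 (mean late change 2.59), LOC101255164 (2.56) and LOC101246151 (2.37). None of these loci is described in the reference table, so no function is given.

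The 8 genes with a symbol were mostly transcriptional regulators. SPGB, a bZIP protein first found as a partner of the flowering regulator SELF-PRUNING, peaked at 48 h. Its FPKM in GSs was 0.852, 0.707 and 2.34 at 0 h, 5.27, 2.91 and 4.25 at 24 h, with 28.8, 26.1 and 17.7 at its peak, and then 3.59, 6.35 and 5.87 by 96 h. In NGSs these were 1.25, 0.565 and 1.07, 7.86, 2.34 and 2.37, 20.4, 13.8 and 12.97 and 3.07, 4.71 and 3.60 FPKM. At 6 h its change was -0.60 in GSs and -0.65 in NGSs, near the lower limit of the rule, and all 3 libraries of 48 h lay above all others of the same seedling type.

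THM16, a MYB transcription factor, went from 2.64, 1.08 and 1.15 FPKM at 0 h to 23.4, 22.7 and 14.2 at 48 h in GSs. The NGSs had 1.86, 1.82 and 0.502 FPKM at 0 h and 8.49, 4.94 and 16.9 at 48 h, without overlap between the 2 time points in either seedling type. GRAS2, of the GRAS family of transcriptional regulators, was strongly expressed, with 13.1, 16.1 and 17.6 FPKM at 0 h, 91.6, 75.5 and 75.1 by 48 h and 69.3, 70.9 and 73.6 by 96 h in GSs. In NGSs GRAS2 was at 10.6, 10.4 and 8.52 FPKM, 40.5, 34.04 and 63.4 and 38.3, 47.2 and 49.1. Between 48 and 96 h GRAS2 moved by -0.17 ± 0.33 (SE) in GSs and by 0.01 ± 0.33 in NGSs, and was called in neither. In GSs the libraries of 96 h nevertheless all lay below those of 48 h, whereas in NGSs the 2 time points overlapped.

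NAM1, a NAC transcription factor, had the highest level of the 8. It averaged 84.97 ± 17.6 FPKM (SD, n = 3) at 0 h and 229 ± 87.98 at 96 h in GSs, and 66.5 ± 12.9 and 218 ± 94.2 FPKM in NGSs. DREB1, an AP2/ERF factor of the type that binds dehydration-responsive elements, and CRF5, a cytokinin response factor of the same superfamily, were weakly expressed. DREB1 averaged 0.439 ± 0.132 FPKM at 0 h and 4.93 ± 3.98 at 96 h in GSs, with a wide spread between the 3 libraries of 96 h (9.51, 2.97 and 2.30). CRF5 averaged 0.596 ± 0.200 FPKM at 0 h and 3.77 ± 1.28 at 48 h in GSs, and 0.242 ± 0.0231 and 1.89 ± 0.703 FPKM in NGSs.

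The other 2 symbols belong to enzymes. ODD, a 2-oxoglutarate-dependent dioxygenase by its name, was at 7.46, 7.86 and 5.37 FPKM at 0 h in GSs and at 47.4, 55.9 and 41.6 at 96 h. In NGSs it was at 3.63, 3.84 and 0.878 FPKM at 0 h, 14.6, 21.2 and 5.35 by 48 h and 53.5, 24.1 and 105 by 96 h. The replicates of ODD at 96 h in NGSs thus ranged from 24.1 to 105 FPKM, all above those of 0 h. CMPG1, a U-box E3 ubiquitin ligase known from the immune cell death response of tobacco, had 0.276, 0.114 and 0.367 FPKM at 0 h and 11.8, 7.63 and 12.3 at 96 h in GSs. Its levels in NGSs were 0.0432, 0.0914 and 0.174 FPKM at 0 h and 2.88, 3.09 and 3.66 at 96 h, below every GS library of 96 h. LOC101259816, whose synonyms name a receptor-like protein kinase, had the smallest mean late change of all 58 genes (1.16), and its 3 libraries of 96 h in GSs held 20.7, 17.5 and 19.02 FPKM.

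**Figure D3:**
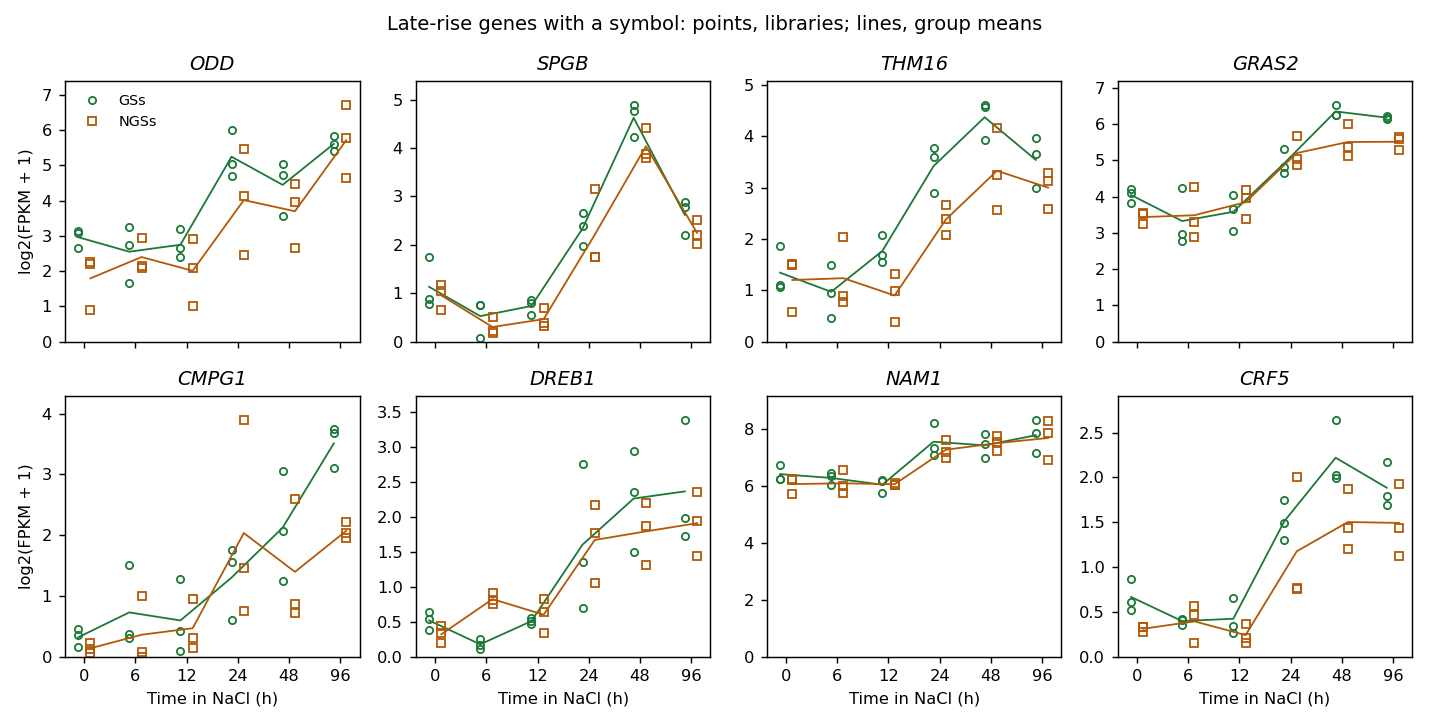
The 8 late-rise genes with a symbol are shown with log2(FPKM + 1) on the y axis (own scale for each gene) and the time in NaCl on the x axis (h, evenly spaced), with 1 point per library and lines through the group means. SPGB peaks at 48 h in both seedling types, the GRAS2 means of 48 and 96 h lie close together, and ODD is higher at 96 h than at 48 h.

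Genes that share a symbol stem with these regulators did not all follow the same course. They were picked after the values were seen and are given without a test. Among 7 GRAS genes, GRAS1 had already changed by 1.82 in GSs and 1.76 in NGSs at 6 h, GRAS6 by 1.56 and 2.77, and GRAS26 stayed between −0.35 and 0.14 in GSs but lay at −0.83 at 12 h and −0.81 at 24 h in NGSs. Of 5 CRF genes, CRF4 was up by 1.30 in GSs and 1.02 in NGSs at 6 h, and CRF3 lay below its 0 h level at 6 and 12 h in both. THM6 fell by 3.64 on the log2 scale in NGSs at 6 h, where THM16 changed by 0.04. DREB3 was the nearest to the pattern, with 0.28 and −0.10 at 6 h and 1.83 and 1.61 at 96 h, but its 12 h changes of 0.78 and 0.86 exceeded the early limit.

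The libraries of 24 h, which the rule did not read, show where the genes stood between the early and the late time points. At 24 h the change was above 0 in 55 of the 58 genes in GSs and also in 55 in NGSs, against 51.0% and 51.1% of all genes tested. The medians were 0.86 (−0.55 to 2.35) and 1.13 (−0.71 to 2.66), where those of all genes tested were 0.01 and 0.02. A change of at least 1 was reached by 21 genes in GSs and 36 in NGSs, and by 18 in both. In GSs the 24 h level was below both late levels in 55 genes and above both in none. In NGSs it was below both in 41 genes and above both in 5, which were LOC101268689, LOC101259229, LOC101266834, LOC101256188 and LOC101247319. By comparison, the 116 genes that had also risen at 6 and 12 h had median changes of 1.69 and 2.19 at 24 h. The lowest changes at 24 h were those of LOC101255525 (-0.55 in GSs and -0.71 in NGSs), the read-defined gene 623 (-0.52 and 0.31) and LOC101250549 (0.04 and -0.08). LOC101255525 held 2.61, 0.336 and 0.528 FPKM at 24 h in NGSs and 36.3, 10.4 and 49.4 at 48 h, so its late rise lay after 24 h. At 6 h, however, replicate 2 of the NGSs held 11.99 FPKM, against 0 and 0.893 in replicates 1 and 3. That 1 early library was thus above the lowest library of 48 h.

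With limma, 13 of the 58 genes (22.4%) were upregulated DEGs at 24 h in GSs (log2 change of at least 1 and Benjamini-Hochberg FDR under 0.05), against 2.19% of all genes tested. In NGSs 34 (58.6%) were upregulated, against 9.8% of all genes tested, and no late-rise gene was downregulated in either. Both shares lay above the background, but the 24 h changes share their 0 h libraries with the changes that chose the genes, so they are not independent of the choice. In addition, only 46 of the 58 genes passed the filter on low values in the libraries of 0, 6 and 12 h alone. The others entered the test through libraries of 24 h or later, which raises these shares. Among them was LOC101260469, which was called in both seedling types. The libraries of 24 h all lay above those of 0 h in 45 genes in GSs and 46 in NGSs, against 15.1% and 27.4% of all genes tested. A total of 11 genes were called in both seedling types, 2 in GSs alone, 23 in NGSs alone and 22 in neither, and a call in 1 seedling type only does not show that the types differ. The GS count rested on single libraries: it was 7 without replicate 1 of the GSs at 0 h and 8 without replicate 8 of the GSs at 24 h. Over the same step the summed FPKM of the 9 leaf markers went from between 34864 and 79649 at 0 h to between 11187 and 28297 at 24 h in GSs and from between 58546 and 92070 to between 10079 and 20897 in NGSs. Of these markers, 8 were downregulated at 24 h in each seedling type and none was at 0. The sums were already low earlier, with 11428 to 18663 at 6 h in GSs and 8267 to 22750.5 at 12 h in NGSs. In NGSs at 6 h they were 33778 to 48720, and in GSs at 12 h 25881 to 49726. The part of the markers in the result was not tested.

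The largest of these changes belonged to LOC101255164, LOC101267939 and ODD. LOC101267939 rose by 2.35 ± 0.33 (SE) in GSs (limma FDR 1.00e-04) and by 2.18 ± 0.33 in NGSs (FDR 6.13e-06). LOC101255164 rose by 2.22 ± 0.61 and 2.66 ± 0.61 (FDR 0.0147 and 7.54e-04), with replicates as far apart as 8.03, 5.004 and 56.4 FPKM in NGSs at 24 h. The GS call of LOC101255164 was lost without replicate 1 of 0 h or replicate 8 of 24 h (FDR up to 0.0939), with only the libraries compared and with voom on recovered reads (FDR up to 0.0802). ODD rose by 2.28 and 2.22 (FDR 0.0149 and 0.00453), and lost its call in GSs without replicate 1 of 0 h or replicate 8 of 24 h and in NGSs without replicate 7 of 24 h. Other GS calls were THM16 (2.07, FDR 0.0011), LOC101244293 (1.86), LOC101260469 (1.68), LOC101266726 (1.35), LOC104645520 (1.33), LOC101267321 (1.22) and SPGB (1.20, FDR 0.00994). THM16 kept its call in GSs with any single library left out, and SPGB lost it without replicate 1 of 0 h.

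In NGSs, LOC101250624 (2.47) and LOC101259229 (2.23, limma FDR 5.91e-07) were also among the largest changes at 24 h. They were followed by CMPG1 (1.90), LOC101251668 (1.86), LOC101246151 (1.86), LOC101247644 (1.83) and LOC101268689 (1.80). The CMPG1 call rested on replicate 8, since the libraries of 24 h held 0.688, 13.9 and 1.74 FPKM, and was lost without it. GRAS2 rose by 1.76 in NGSs (FDR 1.03e-04), DREB1 by 1.35 (FDR 0.00742) and NAM1 by 1.20 (FDR 0.0028). In GSs the estimates for GRAS2 and DREB1 were 0.88 and 1.09 with FDRs of 0.0709 and 0.0695, and NAM1 was called (1.14, FDR 0.0175), though not without replicate 1 or 3 of 0 h or replicate 8 of 24 h. CRF5 was called in neither seedling type, with estimates of 0.85 and 0.86, but this depended on the pseudocount. With a pseudocount of 0.1 it was called in both (1.52 and 1.88, limma FDR 0.0235 and 0.00119). Voom on recovered reads also called it in both (1.68 and 2.15, FDR 0.0352 and 0.0102). Of the 13 GS calls at 24 h, 6 held with any single library left out and 6 under all of the other alternatives run. Of the 34 NGS calls these were 16 and 23.

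**Figure D4:**
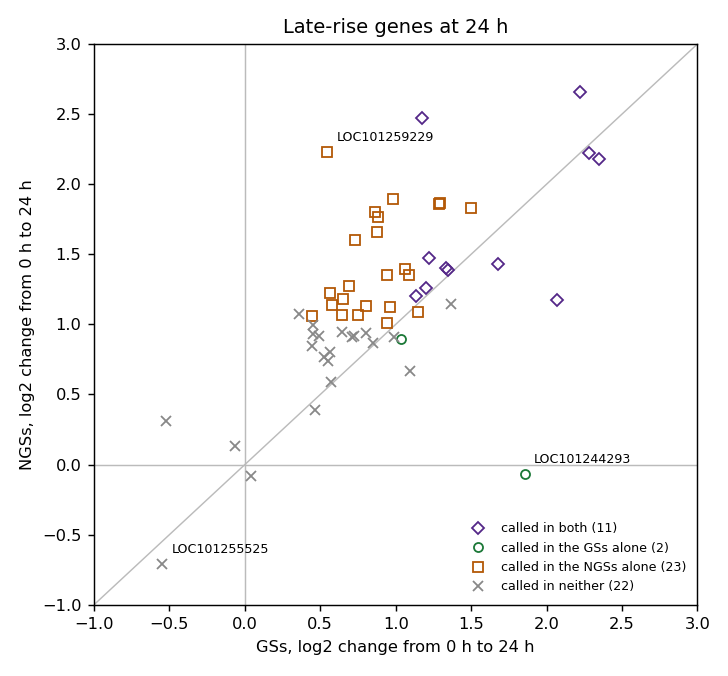
The log2 change from 0 to 24 h in GSs (x axis) is plotted against that in NGSs (y axis), with 1 point for each of the 58 late-rise genes, the symbol showing in which seedling type limma called it and the diagonal marking equal changes. LOC101259229 (0.55 and 2.23) and LOC101244293 (1.86 and −0.06) lie farthest from the diagonal.

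The difference between the 24 h changes of the 2 seedling types was tested as an interaction. In 2 of the 58 genes it passed both thresholds, against 4.61% of all genes tested, so the share among the late-rise genes (3.45%) was near the background. LOC101244293 changed by 1.92 ± 0.54 (SE) more in GSs than in NGSs (limma FDR 0.0317). This call was lost when any of 6 libraries was left out: replicates 2 and 3 of 0 h and replicate 8 of 24 h, in either seedling type, and also with only the libraries compared (FDR 0.103). LOC101259229 changed by 1.69 ± 0.40 less in GSs (interaction −1.69, FDR 0.0130) and kept its call with any single library left out, but lost it with voom on recovered reads (FDR 0.229). Its FPKM at 24 h was 0.584, 1.08 and 0.712 in GSs and 3.46, 7.01 and 4.63 in NGSs, after 0.0708, 0.470 and 0.151 and 0.111, 0.329 and 0.312 at 0 h. The GSs reached this level by 48 h, with 4.37, 4.99 and 5.57 FPKM. LOC101259229 was also the one late-rise gene called in the direct comparison of GSs with NGSs at 24 h (−1.72 ± 0.28, FDR 0.0149), where 0.0249% of all genes tested were called. That call was lost without replicate 9 of the GSs (FDR 0.0570) or replicate 9 of the NGSs (FDR 0.0535), and also with only the libraries compared and with the replicate number as a block (FDR up to 0.629).

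At the late time points the GSs had the higher level in most late-rise genes, but no single gene passed the thresholds. The libraries of 48 and 96 h also chose the genes, through the change of each seedling type from its own 0 h, so these differences are not independent of the choice and are read as a description. At 48 h the GSs were above the NGSs in 54 of 58 genes with a median difference of 0.58 on the log2 scale, where 48.3% of all genes tested were above 0 and their median was −0.01. No late-rise gene was a DEG, against 0.0498% of all genes tested, while 20 of the 58 (and 11.4% of all genes tested) had an unadjusted p under 0.05 in limma, and voom on recovered reads called none either. All 3 GS libraries lay above all 3 NGS libraries in 19 genes, against 11.1% of all genes tested, and the reverse held in none, against 8.55%. Without replicate 11 of the NGSs at 48 h, which had the lowest mean over the 58 genes, the median fell to 0.39 and the GSs were above in 51 genes.

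The largest differences at 48 h were those of LOC101246588 (1.80 ± 0.38 SE, limma FDR 0.0694), LOC101251668 (1.62 ± 0.67, FDR 0.347) and the read-defined gene 166 (1.40 ± 0.56, FDR 0.332). LOC101246588 was at 23.6, 18.6 and 25.98 FPKM in GSs at 48 h and at 5.22, 3.01 and 11.2 in NGSs. At 0 h its values were 6.004, 2.55 and 4.15 and 2.30, 2.11 and 2.28 FPKM, so the GS libraries were above the NGS libraries at both times. With replicate 12 of the NGSs left out, LOC101246588 was called at 48 h (2.24, FDR 0.0113), as was LOC101267939 (1.47, FDR 0.0419). For the read-defined gene 166 the libraries held 11.9, 12.6 and 10.96 FPKM in GSs and 5.22, 2.02 and 5.02 in NGSs, and the 2 groups did not overlap. The 48 h differences of THM16 (1.04), GRAS2 (0.84) and CRF5 (0.72) had an unadjusted p under 0.05 but FDRs of 0.309, 0.333 and 0.273. LOC101255525 had the lowest value (-0.81, FDR 0.631).

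At 96 h the median difference was 0.40, with the GSs above the NGSs in 48 of 58 genes, where 51.7% of all genes tested were above 0. Again no late-rise gene was a DEG, against 0.00996% of all genes tested, with a lowest limma FDR of 0.429 and no call with voom. An unadjusted p under 0.05 in limma was found for 8 of the 58 and for 4.51% of all genes tested. In 16 genes the GS libraries all lay above the NGS libraries and in 2 the NGS libraries lay above, against 7.36% and 4.13% of all genes tested. CMPG1 had the largest difference (1.44 ± 0.57 SE), and without replicate 14 of the NGSs the median over the 58 genes was 0.25. Before salt, at 0 h, the median was already 0.19, with the GSs above in 42 genes, where 48.2% of all genes tested were above 0. There was no DEG among the 58, against 5.07% of all genes tested. At that time 7 of the 58 late-rise genes (and 28.6% of all genes tested) had an unadjusted p under 0.05 in limma, and voom called 1 (LOC101267321). All 3 GS libraries were above all 3 NGS libraries in 18 genes, against 15.6% of all genes tested. At 24 h the median was −0.07 and the GSs were above in 24 genes, where 51.1% of all genes tested were above 0. The median of the 58 turned to 0.04 (31 genes above) without replicate 7 of the GSs and to 0.01 (29 above) without replicate 9 of the GSs. Summed leaf markers at 48 h were 32403 to 42642 FPKM in GSs and 21202 to 41774 in NGSs, and at 96 h they were 24226 to 54689 and 22458 to 56359, with overlap at both times.

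**Figure D5:**
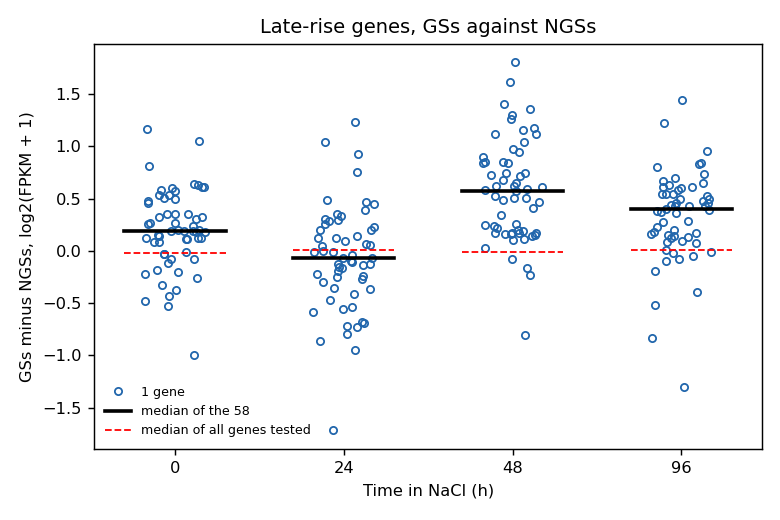
Each point is 1 of the 58 late-rise genes, with the mean log2(FPKM + 1) of the GSs minus that of the NGSs on the y axis and the time in NaCl (h) on the x axis. The solid bars mark the median of the 58 genes (0.19, −0.07, 0.58 and 0.40 from 0 to 96 h) and the dashed bars the median of all genes tested.

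From 48 to 96 h the late-rise genes did not move as a group. In GSs 33 genes were higher at 48 h and 25 at 96 h, and in NGSs the counts were 25 and 33. A total of 19 genes were higher at 48 h in both seedling types, 19 were higher at 96 h in both, 14 were higher at 48 h in GSs only and 6 in NGSs only. In GSs 5 genes were downregulated and none upregulated at 96 h against 48 h, where 2.54% of all genes tested were downregulated and 4.7% upregulated. An unadjusted p under 0.05 in limma was found for 14 of the 58 and for 33.3% of all genes tested. In NGSs 1 gene was downregulated and 3 were upregulated, against 3.14% and 6.15% of all genes tested. Both time points also chose the genes, so these counts are not independent of the choice and are read as a description. Without replicate 11 of the NGSs at 48 h, 34 genes were higher at 48 h in NGSs and 24 at 96 h, which turns the order of the 2 counts.

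SPGB was the one late-rise gene downregulated in both seedling types, by -2.01 ± 0.31 (SE, limma FDR 8.07e-05) in GSs and -1.79 ± 0.31 (FDR 1.58e-04) in NGSs, and it kept both calls with any single library left out. The libraries of 48 h (12.97 to 28.8 FPKM) and 96 h (3.07 to 6.35 FPKM) did not overlap. The other GS calls were the read-defined gene 779 (-1.73, FDR 0.0147), LOC101259229 (-1.13, FDR 0.0058), LOC104647464 (-1.04, FDR 0.00673) and LOC101247873 (-1.03, FDR 0.00511). LOC101259229 stood at 2.37, 1.44 and 1.48 FPKM at 96 h, after 4.37, 4.99 and 5.57 at 48 h. The calls of the read-defined gene 779, LOC104647464 and LOC101247873 each depended on 1 of the libraries of 48 h (replicates 12, 11 and 10) and on 1 of 96 h (replicates 14, 13 and 15).

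In NGSs, ODD was upregulated by 2.01 ± 0.63 between 48 and 96 h (limma FDR 0.0183), LOC101260469 by 1.18 (FDR 0.0101) and LOC101267939 by 1.17 (FDR 0.00947). All 3 libraries of ODD at 96 h were above those of 48 h, and its call was lost without replicate 12 of 48 h or replicate 15 of 96 h. LOC101260469, with 1.89, 0.601 and 1.35 FPKM at 48 h and 3.24, 5.11 and 3.88 at 96 h, and LOC101267939 both lost their calls without replicate 11 of 48 h. The NGS count was then 2. In GSs the estimates for these 3 genes were 1.16, 0.48 and 0.59, and none was called.

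The late-rise genes held no member of 11 lists of known pathway genes, which were matched by symbol or synonym. Only 8 of the 58 genes had a symbol, and 0.289% of all genes tested were late-rise genes. This absence was therefore likely in advance and tells little about their pathways. In the list for abscisic acid and dehydration, 14 genes were tested, and 10 were upregulated at 48 h and 8 at 96 h in GSs, where 7.12% and 9.17% of all genes tested were upregulated. The NGSs had 8 and 7 upregulated, against 9.77% and 9.25%. The dehydrin TAS14 was among them, with changes of 7.94 and 8.60 at 48 and 96 h in GSs, but it had already changed by 4.31 at 6 h, and the late embryogenesis abundant gene LE25 by 3.44. NCED1, which encodes a key enzyme of abscisic acid synthesis, changed by −0.48 at 6 h and 3.64 at 48 h in GSs but by 1.49 at 6 h in NGSs, which kept it out of the group. Among 16 WRKY genes tested, 5 were upregulated at 48 h and 8 at 96 h in GSs, and 6 at both times in NGSs. In the reference gene order of the assembly SLM_r2.1, which could place 52 of the 58 genes, only LOC101251286 and LOC101252688 lay within 10 positions of each other, with 9 genes between them.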

How the data were processed

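Leaf RNA was made into libraries with a kit for Illumina sequencing. The authors filtered the reads and mapped them with HISAT to a tomato genome. The submitters' processing notes name HISAT2 2.0.5, featureCounts 1.5.0-p3, DESeq2 1.16.1 and STAR-Fusion 1.2.0 without their roles, and strandedness is not given in the sources used here. The deposited values of 32246 genes were used as FPKM made by the authors, a unit inferred from their form. For each gene a value of 1 read was searched that made all its values whole within 0.02 reads. One was found for every gene with reads, so the 100% of values within this limit follows from the search. Another unit made of reads, a factor of the gene and a factor of the library would have the same form. The deposited values are already scaled between libraries, and the recovered reads gave the totals per library. The relative divisor of a library did not simply follow these totals. It was 0.896 for GS replicate 1 of 0 h (25070006 reads) and 1.44 for NGS replicate 6 of 12 h (24896240 reads). What another scaling would do to the choice of genes was not tested.

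Genes that reached 1 FPKM in 3 or more libraries entered a fit by limma 3.58.1 (lmFit, eBayes with trend) on log2(FPKM + 1) to 12 group means with 24 residual degrees of freedom, in R 4.3.3. In each of 9 comparisons p was adjusted by Benjamini and Hochberg over 20090 genes, and DEGs needed a |log2 change| no smaller than 1 with an FDR under 0.05. Tables and figures were made with Python 3.11.15, NumPy 2.4.6, pandas 2.3.3 and matplotlib 3.10.9. The fit was tested on simulated data.

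The late-rise genes and all lists were chosen with earlier results of these data known. Genes are named if they were among the 10 with the largest mean late change, the 3 highest and 3 lowest at 24 h, the 3 with the largest difference between GSs and NGSs at 48 h, those with a symbol, those at the limits of the rule, or up to 10 called per test. Exceptions chosen after their values were seen are LOC101259816, LOC101252688, the 5 genes highest at 24 h in the NGSs, genes that share a symbol stem and genes of the pathway lists. Alternatives were another pseudocount, no filter, only the libraries compared, voom with TMM on the recovered reads, the replicate number as a block and each library left out. The reference table matched 28942 identifiers and gave symbols only, without descriptions or sequences.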

Additional observations from a re-analysis of the deposited data

Results flagged for a closer look

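In 2 late-rise genes the response at 24 h differed between the GSs and NGSs by a test of the difference itself. This share (3.45%) was near that of all genes tested (4.61%), so it does not set the late-rise genes apart. For LOC101244293 the difference was 1.92 on the log2 scale (limma, FDR 0.0317), with a rise in every GS library of 24 h and no rise in the mean of the NGSs. This call was lost in 6 of 12 fits without 1 library and with only the libraries compared (FDR 0.103). For LOC101259229 it was −1.69 (FDR 0.0130), with the larger rise in the NGSs, and this call was lost with voom on recovered reads (FDR 0.229). In the read-defined gene 623 every GS library of 24 h lay below the 0 h mean of the GSs and every NGS library above that of the NGSs. The difference between both changes was −0.83 ± 0.56 (SE), and the interaction did not pass the threshold (limma, FDR 0.379). The opposite directions were picked out from the values and have no test of their own. The gene had 4 to 11 reads in the GS libraries of 0 h and 0 to 1 in those of the NGSs.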

How the results depend on the processing

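The number of late-rise genes was 58 as given, 37 with a pseudocount of 0.1 (26 of them shared), 19 with an early limit of 0.5, 116 with an early limit of 1, 16 with late changes of at least 1.5, and 47 to 69 with 1 library left out. The GS calls at 24 h numbered 22 with a pseudocount of 0.1, 6 with only the libraries compared and 7 to 18 with 1 library left out, and the NGS calls 26 to 31. Between GSs and NGSs, 1 gene was called at 0 h with a pseudocount of 0.1 and also 1 with voom, and 0 to 2 with 1 library left out. At 24 h the 1 call was lost (0) with only the libraries compared and with the replicate block, and the count was 0 to 1 with 1 library left out. At 48 h it was 0 to 2 and at 96 h 0 to 0. The interaction at 24 h had 1 call with only the libraries compared and 1 with voom, and 1 to 2 with 1 library left out. From 48 to 96 h the GSs had 2 calls with a pseudocount of 0.1 and 4 to 5 with 1 library left out, and the NGSs 2 to 5.

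Whether the replicate numbers pair libraries of the GSs and NGSs is not stated in the labels. Deviations of same-numbered libraries had correlations from −0.01 to 0.21 (0 h), 0.12 to 0.43 (6 h), −0.10 to 0.46 (12 h), −0.18 to 0.25 (24 h), −0.08 to 0.18 (48 h) and −0.39 to 0.43 (96 h). The GS libraries that correlated best with their own number were 2 of 3 at 0 h, 3 of 3 at 6 h and 1 of 3 at 12, 24, 48 and 96 h, and the correlations exceeded 0.1 in every pair at 6 h only, where no comparison was made. With the replicate block, 0 late-rise genes were called between GSs and NGSs at 0, 24, 48 and 96 h, which at 24 h was 1 fewer. No called gene changed direction under any alternative run, but 2 medians over the late-rise genes did: GSs against NGSs at 24 h (−0.07, and 0.04 and 0.01 without replicates 7 and 9 of the GSs) and 96 against 48 h in NGSs (0.10, and −0.10 and −0.01 without replicate 11 of 48 h and replicate 15 of 96 h). Depth limits the weakest genes most: 8 had 0 reads in at least 1 library of 0 h, and their changes depend on the pseudocount. The cause of these shifts was not tested.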
